A study of Homo sapiens with 12 samples.

Results

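Histone mRNAs of 2 kinds were followed in HEK293T cells: those of the replication-dependent histone genes, which mostly sit in clusters and supply histones for newly copied DNA, and those of the variant genes, which supply replacement histones outside S phase. Members were the protein-coding genes of GENCODE 29 whose symbol starts with HIST1H, HIST2H, HIST3H or HIST4H (71 genes, here called replication-dependent) or with H2AF, H3F3 or H1F (16 genes, here called variant). The symbol alone decided the class. These 87 genes were among 58735 annotated genes, 19951 of them protein-coding. HEK293T cells descend from human embryonic kidney and express the large T antigen of SV40. RNA was taken 24 h after transfection from 4 groups of 3 libraries each. The miR-211 group received 500 ng of a plasmid for this microRNA, and its control, labelled only Control, received 500 ng of plasmid. In the U1 siRNA group U1 small nuclear RNA was targeted with 1 nM of a Dicer-substrate siRNA, and the control group of this siRNA received a scrambled oligo. The labels add "WT" to both oligo groups without saying what it stands for, and they do not say whether the plasmid and oligo transfections were run together. Per the labels, at least 50% of the cells took up the plasmid and U1 was lowered by 30%, so libraries may mix reached and unreached cells.

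The libraries held 4515728 to 9290686 counts in genes. MIR211 had 1646 to 1997 counts in the miR-211 libraries, against 1 to 9 in plasmid control libraries. The summed level of 15 U1 genes was 16.7 ± 2.51 CPM (counts scaled to the library's total in genes) in U1 siRNA libraries and 18.4 ± 1.65 CPM in scrambled oligo libraries (SD, n = 3 each; 2-sided exact permutation p = 0.5, where 0.1 is the smallest possible). These sums rest on 63 to 153 counts per library, and pairs that fit several places are counted for none. Whether such counts follow the U1 that the siRNA targets was not tested. U1 siRNA replicate 2 stood apart, with 44.5% of its uniquely mapped pairs outside annotated exons, against 14.5% to 25.5% in the other 11 libraries. Of 11 markers chosen for the HEK293T background, 8 averaged at least 1 CPM, led by NEFL (86.4 CPM), while the kidney-lineage genes PAX2, PAX8 and LHX1 averaged 0.205, 0.254 and 0.207 CPM. The 10 markers of blood, fibroblast, melanocyte and liver cells reached at most 2.36 CPM on average (COL1A1), and 4 of them averaged at least 1 CPM.

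Nucleosomes wrap DNA around a core of H2A, H2B, H3 and H4, and linker H1 binds where the DNA enters and leaves. Most replication-dependent histone mRNAs end in a conserved stem-loop and not in a poly(A) tail. The stem-loop binding protein SLBP and the U7 small nuclear RNA direct cleavage just past the stem-loop, and the mRNAs are made and destroyed with S phase. Variant histone mRNAs are mostly spliced and polyadenylated and are present throughout the cell cycle. The sources used here do not give how RNA was selected, so how far mRNAs without a tail were captured is unknown.

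The stem-loop was searched for as GGCNCTTNTNAGNGCC in the sequence of annotated transcripts, within 150 bases after the stop codon. It was found in 33 members, 32 of them replication-dependent, and in 0 of 18938 other protein-coding genes with an annotated 3′ UTR above a minimum length. It began 23 to 68 bases after the stop codon. The sequences below, all within the annotated 3′ UTR exon on GRCh38, show how little it varies: the stem-loop is in capitals in its flanks, written as DNA in the direction of the transcript.
HIST1H4I: taaaaaGGCCCTTTTTAGGGCCcctaag
HIST1H4E: atcaaaGGCCCTTTTCAGGGCCgcccac
HIST1H2BD: cccaaaGGCTCTTTTAAGAGCCacgcat
HIST1H2BC: cccaaaGGCTCTTTTAAGAGCCacccag
HIST1H3E: tccaaaGGCTCTTCTCAGAGCCaacca
HIST1H2AC: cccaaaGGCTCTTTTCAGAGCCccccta
H2AFX: cacaaaGGCCCTTTTAAGGGCCaccacc
On the plus strand lie the stretches of HIST1H4I (chr6:27139648-27139675), HIST1H4E (chr6:26204995-26205022), HIST1H2BD (chr6:26158581-26158608), HIST1H3E (chr6:26225590-26225616) and HIST1H2AC (chr6:26124663-26124690). Those of HIST1H2BC (chr6:26123466-26123493) and H2AFX (chr11:119094892-119094919) lie on the minus strand.

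The form with GGCTC in the stem was held by H2A, H2B and H3 genes: 17 had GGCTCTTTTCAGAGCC and 5 had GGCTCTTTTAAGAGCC. HIST1H3E had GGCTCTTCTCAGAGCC and HIST1H2AG, an H2A gene, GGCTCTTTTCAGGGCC. The H4 genes had GGCCC stems: 5 had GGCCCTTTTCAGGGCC and 3 had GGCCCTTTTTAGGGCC. H2AFX, whose product is phosphorylated at DNA breaks, was the single variant gene with a match and had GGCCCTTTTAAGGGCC. Its mRNA is known in both a stem-loop and a polyadenylated form. In 23 of the 32 replication-dependent genes, an annotated transcript ran at least 100 bases beyond the stem-loop, up to 1917 bases in HIST3H2BB. Another 35 replication-dependent genes were annotated without any 3′ UTR, so the search could find nothing there.

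The annotated transcripts of the 2 leading replication-dependent genes, HIST1H4C (chr6:26103876-26104310, plus strand) and HIST1H1E (chr6:26156354-26157107, plus strand), held no full match, and their last 30 bases are shown for that reason. Capitals mark the last 20 bases in HIST1H4C and the first 13 of the 16 stem-loop bases in HIST1H1E, where the annotation stops within it.
HIST1H4C: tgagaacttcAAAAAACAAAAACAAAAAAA
HIST1H1E: gcccaacacaacccaaaGGCTCTTTTCAGA
These stretches are chr6:26104281-26104310 and chr6:26157078-26157107, both on the plus strand. Of the last 20 annotated bases of HIST1H4C, 18 were A. A window with 18 or more A ended the transcript in 0.444% of 19835 other protein-coding genes, and 9.48% of them held one anywhere. HIST1H2BG, which held a window of 20 A, had 0.458 CPM per kb. Across the 71 replication-dependent genes the number of A in the richest window and the mean level had a Spearman rho of 0.163, and of -0.0611 over the 48 genes with at least 10 counts, as a description of genes that share libraries and partly sequence. This feature was looked for after the levels were seen.

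Members took up 0.733% to 0.960% of all counts, spread very unevenly. Mean levels reached 1 CPM in 30 of 71 replication-dependent and 10 of 16 variant genes, and 100 CPM in 4 and 3 of them. No count was found in any library for 9 members, namely HIST1H3D, HIST1H2AK, HIST2H3A, HIST2H3C, HIST2H2AA4, HIST2H3PS2, H2AFB1, H2AFB2 and H2AFB3. Over the 12 libraries a count of 0 allows up to 0.0366 CPM, by counting error alone. All 9 share more than 50% of their 126-base windows, the read length, with another annotated gene. A pair that fits several places or overlapping genes is counted for none, so these zeros say little about expression. The whole of HIST1H2AK lies in the exons of HIST1H2BN, and HIST2H4A shares all its windows with HIST2H4B, so their counts are uncertain too.

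Because genes differ in length, levels are compared between genes as CPM per kb of annotated exon, and long alternative transcripts lower this value. Of the 3 families with both classes, replication-dependent genes led for H1, and variant genes led for H2A and H3. The 15 H4 genes, which have no variant counterpart, summed to 8402 CPM per kb on average over the 12 libraries (5755 to 10040). The 6 linker H1 genes summed to 1144 CPM per kb (821 to 1813), against 18.7 CPM per kb for the 4 H1 variants (11 to 23.3). For H2A the order was turned: 17 replication-dependent genes summed to 110 CPM per kb (62.9 to 169), and 9 variants summed to 688 CPM per kb (615 to 747). For H3, 15 replication-dependent genes summed to 38.8 CPM per kb (25.5 to 49.5), and the 3 genes of the H3F3 group to 443 CPM per kb (407 to 459). The 18 H2B genes summed to 127 CPM per kb (93.3 to 165). For H1, H2A and H3 the ranges of the 2 classes over the 12 libraries lay apart. Genes that share most of their windows with another gene are poorly counted, so these sums can fall short. No count was found for 2 of the 17 replication-dependent H2A genes, 4 of the 15 replication-dependent H3 genes and 3 of the 9 H2A variants.

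Levels were spread widely within each class of annotated 3′ end. The 32 replication-dependent genes with the stem-loop in a transcript had a median of 1.12 CPM per kb and none above 6.52 (HIST1H4I). The 35 without an annotated 3′ UTR had a median of 0.279 CPM per kb, yet included HIST1H1C at 392 and HIST1H1D at 161. The 4 with a 3′ UTR and no full match ranged between 0.270 CPM per kb for HIST1H1T and 8373 for HIST1H4C. Among genes with a stem-loop, those annotated at least 100 bases beyond it had a median of 1.05 CPM per kb (23 genes), and those annotated for a shorter stretch 1.37 (9 genes). These bases are part of the exon length that divides CPM, so the measure itself lowers the first group. By CPM, undivided, 15 of the 23 genes and 4 of the 9 averaged at least 1. The 16 variants had a median of 2.17 CPM per kb, and the 71 replication-dependent genes 0.582. H2AFX, the variant with the stem-loop, had 3.48 CPM per kb.

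**Figure D1:**
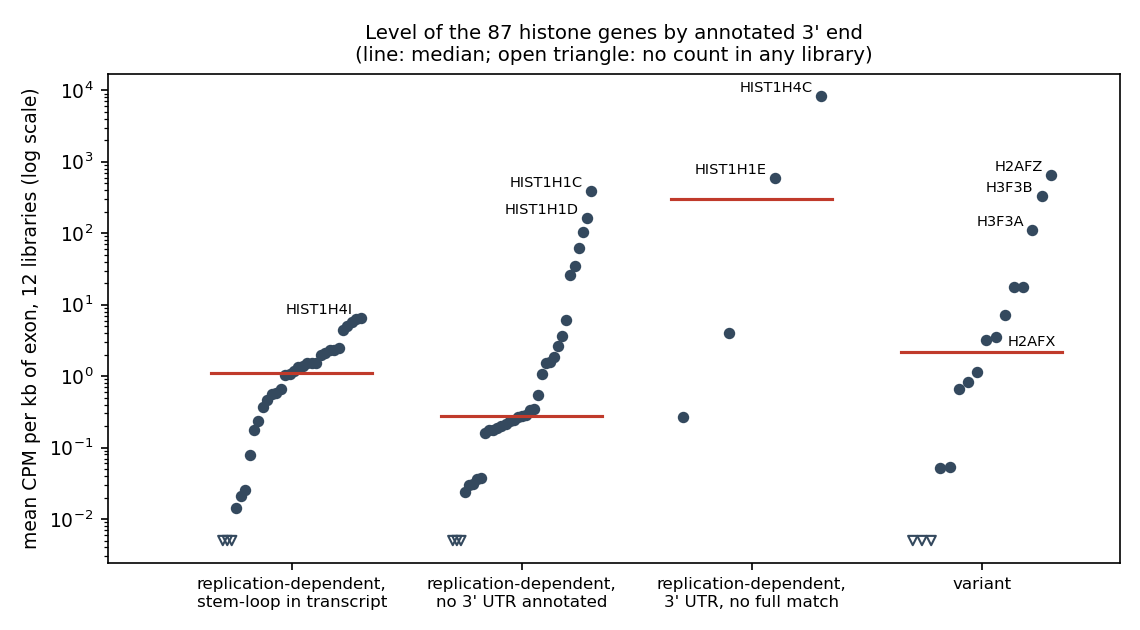
Mean level of each of the 87 histone genes over the 12 libraries (CPM per kb of exon, log scale), with genes sorted within 4 classes of annotated 3′ end. Red lines are class medians, at 1.12, 0.279, 297 and 2.17 CPM per kb, and open triangles are the 9 genes with no count.

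HIST1H4C, one of many genes for the same H4 protein, was the most abundant of all 19951 protein-coding genes per kb of exon and the 17th by CPM. It had 3056, 3156 and 4051 CPM in miR-211 libraries and 2492, 3233 and 3520 in plasmid control libraries. Among oligo libraries it had 4091, 4054 and 3860 CPM in U1 siRNA libraries and 4016, 4354 and 3826 in scrambled oligo libraries. All 6 oligo libraries lay above the 3 plasmid control libraries, and miR-211 replicate 3 was the single plasmid library within their range. HIST1H4C made up 98.9% to 99.3% of the counts of the 15 H4 genes in every library.

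The linker genes came next. HIST1H1E had 446, 522 and 785 CPM in miR-211 libraries, 372, 484 and 536 in plasmid control libraries, 448, 297 and 353 in U1 siRNA libraries, and 421, 353 and 328 in scrambled oligo libraries. HIST1H1C (chr6:26055787-26056428) had 275, 278 and 409 CPM in miR-211 libraries, 207, 283 and 294 in plasmid control libraries, 269, 191 and 186 in U1 siRNA libraries, and 244, 203 and 182 in scrambled oligo libraries. HIST1H1C stood at 52.1 to 64.3 counts per 100 of HIST1H1E in all 12 libraries, a narrow range beside that of either gene. HIST1H1D (chr6:26234268-26234933) had 67.7 to 143 CPM, with overlapping groups. By contrast HIST1H1B, also a somatic linker gene, had 13 counts in all and HIST1H1A 8.

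Core genes other than HIST1H4C lay far below it. Per kb of exon, HIST1H2BK was still the 477th and HIST1H2AH the 757th of 19951 protein-coding genes. HIST1H2BK averaged 103 CPM per kb, HIST1H2AH 62.5, HIST2H2AC 34.9 and HIST1H3B 26.0, and the next named genes, HIST1H4I, HIST1H2BD, HIST1H3A and HIST1H4E, lay between 5.64 and 6.52. HIST1H2AH varied most within groups. It had 40.5, 17.4 and 13.7 CPM in miR-211 libraries, 10.4, 38.7 and 38.6 in plasmid control libraries, 33.7, 14.0 and 25.6 in U1 siRNA libraries, and 18.9, 16.1 and 22.6 in scrambled oligo libraries. HIST2H2AC had a similar spread, at 5.82 to 20.2 CPM. Members of the replication-dependent class that passed the count filter over all 12 libraries (27 genes) had a median biological coefficient of variation of 16.9%, against 13.0% for 10 variants and 10.8% for all 13520 genes tested. This coefficient falls with abundance, but HIST1H2AH (35.4%), HIST2H2AC (27.7%), HIST1H1D (17.9%) and HIST1H1E (16.5%) stood above the 10.3%, 11.2%, 8.43% and 7.84% that the trend over all genes gives at their level. Of the 27 replication-dependent genes 12 stood above the trend, as did 5 of the 10 variants and 4197 of all 13520 genes.

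**Figure D2:**
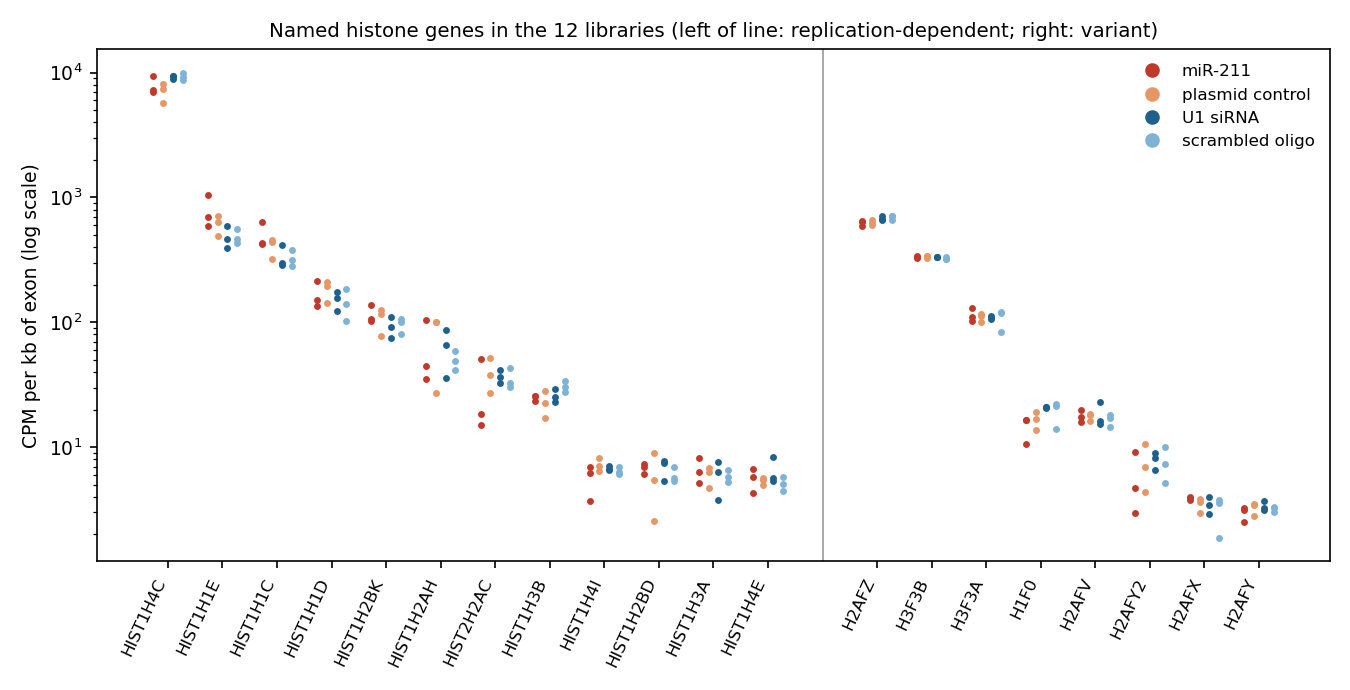
Level of the 12 replication-dependent and 8 variant genes with the highest mean (CPM per kb of exon, log scale), 1 point per library, coloured by group. By its mean over the libraries, HIST1H4C lies more than an order of magnitude above the next gene, though not in every library. HIST1H2AH, HIST2H2AC and H2AFY2 scatter within groups.

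Among variants, 2 genes held 85.2% to 88.1% of the summed counts. H2AFZ, which codes for H2A.Z and lies on chromosome 4 (99948086 to 99950388, minus strand), had 1357 to 1484 CPM in miR-211 libraries, 1396 to 1507 in plasmid control libraries, 1519 to 1623 in U1 siRNA libraries and 1511 to 1642 in scrambled oligo libraries. H3F3B on chromosome 17 (75776434 to 75785893, minus strand) was the steadiest, between 1967 and 2103 CPM in all 12 libraries. H3F3A, which codes for the same replacement H3, had 264 to 407 CPM. H1F0, a linker histone known for differentiated cells, had 24.7 to 51.9 CPM, and H2AFV, the second H2A.Z gene, 68.6 to 109. The macroH2A genes H2AFY and H2AFY2 had 44.8 to 66.2 and 5.93 to 21.0 CPM. H2AFY2 spread more widely, with a biological coefficient of variation of 27.6%, where the trend over all genes gives 11.1% at its level.

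Histone genes known from germ cells had few counts. Over the 12 libraries, the testis genes HIST3H3, HIST1H1T, HIST1H2BA, HIST1H2AA and H1FNT had 20, 17, 12, 7 and 6 counts, and H1FOO, the oocyte linker histone, had 6. The 3 H2AFB genes had 0, but share 72.7% or more of their windows with other genes, so their zeros say little. Of the 68 counts of these genes, 21 were in miR-211, 13 in plasmid control, 14 in U1 siRNA and 20 in scrambled oligo libraries, and 10 were in U1 siRNA replicate 2.

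Summed over the 71 genes, replication-dependent histone mRNA was 4605 ± 785 CPM in miR-211 libraries and 4097 ± 725 in plasmid control libraries, and 4857 ± 240 in U1 siRNA libraries and 4902 ± 296 in scrambled oligo libraries (SD, n = 3 each). The libraries behind these means were 4048, 4264 and 5502 CPM for miR-211 and 3288, 4312 and 4690 for the plasmid control, and 5119, 4803 and 4648 for U1 siRNA and 4961, 5164 and 4581 for the scrambled oligo. In bulk RNA, fewer cells in S phase and less histone mRNA per cell cannot be told apart. The 16 variants were far steadier, with 3928 to 4269 CPM in all 12 libraries. HIST1H4C alone made up 73.6% to 84.4% of the replication-dependent sum, and with HIST1H1C, HIST1H1D and HIST1H1E 95.6% to 96.9%. Without HIST1H4C the sum was 1184 ± 239 CPM in miR-211 libraries and 1015 ± 195 in plasmid control libraries, and 855 ± 151 in U1 siRNA libraries and 837 ± 97.9 in scrambled oligo libraries. The sum is therefore mostly that of 4 genes, and treated and control libraries overlapped in it for both treatments. Without HIST1H4C it was 992, 1108 and 1451 CPM in miR-211 libraries and 796, 1079 and 1169 in plasmid control libraries, higher with miR-211 in each same-numbered pair. The full sum was not: in replicate 2 it was 4264 CPM with miR-211 and 4312 CPM with the plasmid control. Leaving out HIST1H4C was chosen after the values were seen.

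**Figure D3:**
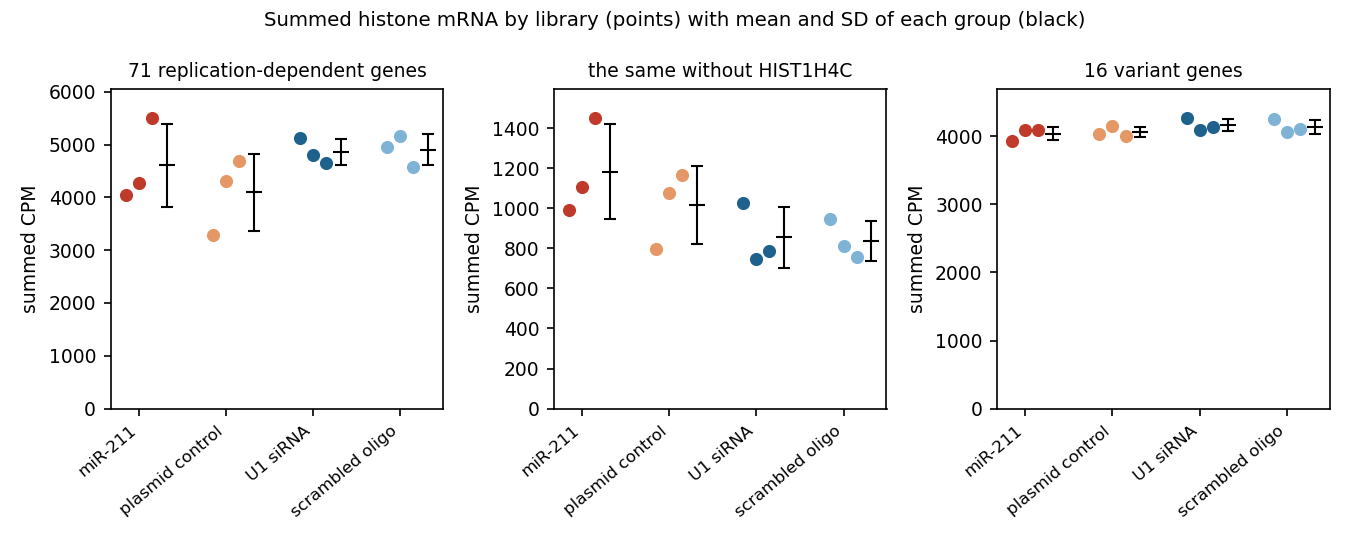
Summed CPM of the 71 replication-dependent genes, of the same genes without HIST1H4C, and of the 16 variant genes, 1 point per library with group mean and SD beside it. The replication-dependent sums scatter between 3288 and 5502 CPM and the variant sums stay between 3928 and 4269 CPM.

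The first comparison asked which genes responded to miR-211, a microRNA encoded in an intron of TRPM1. No histone gene passed. edgeR's quasi-likelihood test, adjusted by the Benjamini-Hochberg method over all genes tested, called 0 of 34 histone genes, against 0.00788% of all 12685 genes (1 gene, MIR211). At an unadjusted p under 0.05 edgeR gave 3 of 34, limma-voom 1 and DESeq2 0. The shares of all genes were 3.29% for edgeR, 3.22% for limma-voom and 1.48% for DESeq2. Without the filter on low counts edgeR called 0 of 72 members, against 0.00452% of all genes. The labels name no separate cultures, so every p-value measures only the spread between libraries, which may be technical. The median log2 fold change was 0.09 for 25 replication-dependent genes, 0.02 for 9 variants and 0.0079 for all genes tested. Values were above 0 for 17 of the 25, for 6 of the 9 and for 6566 of all 12685 genes. However, the median of the 25 was -0.02 without plasmid control replicate 1 and 0.28 without plasmid control replicate 3.

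The 3 genes with the highest signed p were HIST2H2BE, HIST1H1C and HIST1H1E. HIST2H2BE, an H2B gene, had 1.48, 1.54 and 1.81 CPM in miR-211 libraries, against 0.964, 0.720 and 0.935 CPM in plasmid control libraries. It was the single member of 34 whose groups did not overlap, where 9.7% of all genes tested had groups that did not. Behind these values lay 9, 13 and 14 counts in miR-211 libraries and 6, 5 and 7 in plasmid control libraries. Its log2 fold change was 0.91 with an SE of 0.40 (edgeR adjusted p = 0.996). HIST1H1E had a log2 fold change of 0.36 (SE 0.17) and HIST1H1C 0.32 (SE 0.15), both with edgeR adjusted p = 0.996, and for both the groups overlapped. HIST1H1E was higher in miR-211 libraries in 3 of 3 same-numbered pairs and HIST1H1C in 2 of 3. Replicate 3 of miR-211 carried their highest values. Without it the log2 fold change was 0.09 for HIST1H1E and 0.11 for HIST1H1C, and without plasmid control replicate 1 it was 0.21 and 0.16. Same-numbered libraries deviated together here, and the values above do not use this pairing. With the replicate number as a block in edgeR, 6 of 34 members had an unadjusted p under 0.05, as did 7.43% of all genes. Of the 6 members 5 were higher with miR-211 and 1 was lower, beside 542 higher and 401 lower over all genes. The lower member was the variant H2AFY2, at -0.37 (edgeR unadjusted p = 0.0190, adjusted p = 0.645). HIST1H1E then had 0.34 (edgeR unadjusted p = 3.44e-04, adjusted p = 0.397). HIST1H1C had 0.31 (edgeR unadjusted p = 0.00196, adjusted p = 0.547) and HIST1H4C 0.18 (edgeR unadjusted p = 0.00942, adjusted p = 0.625).

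At the other end stood HIST1H4I, HIST2H2AC and HIST1H2AG. HIST1H4I had 4.78, 8.04 and 9.05 CPM in miR-211 libraries and 8.35, 9.07 and 10.6 CPM in plasmid control libraries. Each miR-211 library lay below the plasmid control library of its number. The log2 fold change of HIST1H4I was -0.30 (SE 0.21) and was 0.04 with the strand-specific counts of column 4. HIST2H2AC had -0.41 (SE 0.34) and HIST1H2AG -0.38 (SE 0.34), all 3 with edgeR adjusted p = 0.996. Without miR-211 replicate 2, HIST2H2AC had -1.23 and HIST1H2AG -0.90. Without miR-211 replicate 3 both had -0.09. The major variants had values near 0: H2AFZ had 0.02 (SE 0.07), H3F3B 0.015 (SE 0.07) and H3F3A 0.08 (SE 0.09). HIST1H4C had 0.18 (SE 0.12), which became 0.04 when miR-211 replicate 3 was left out and 0.03 when plasmid control replicate 1 was.

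The second comparison asked which genes responded to lowering U1, the RNA that recognises 5′ splice sites and also protects pre-mRNA against early cleavage and polyadenylation. Most replication-dependent histone genes have no introns. None of 33 histone genes passed edgeR's adjusted threshold (0.0% of all 12413 genes), and at an unadjusted p under 0.05 edgeR, limma-voom and DESeq2 each gave 0 of 33, where they gave 1.58%, 1.45% and 0.62% of all genes. Without the filter edgeR called 0 of 76 members, against 0.015% of all genes. In none of the 33 did the groups lie apart, against 6.45% of all genes. The median log2 fold change was 0.04 for 24 replication-dependent genes, 0.06 for 9 variants and 0.02 for all genes tested. Without U1 siRNA replicate 1 the median of the variants was -0.015, and without replicate 2 it was 0.13.

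HIST1H4E, HIST1H2AH and HIST1H3E had the highest signed p. HIST1H4E had 12.5, 8.42 and 8.01 CPM in U1 siRNA libraries and 8.59, 6.61 and 7.53 in scrambled oligo libraries, a log2 fold change of 0.35 (SE 0.22). HIST1H3E had 3.47, 5.76 and 3.66 CPM in U1 siRNA libraries and 2.18, 3.73 and 3.66 in scrambled oligo libraries, a log2 fold change of 0.40 (SE 0.34). HIST1H2AH had 0.36 (SE 0.25). For all 3 the groups overlapped, and edgeR's adjusted p was 1.00. Without U1 siRNA replicate 1, HIST1H4E had 0.09 and HIST1H2AH 0.04. HIST1H3E had 0.0074 with the strand-specific counts of column 3.

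HIST1H3B, HIST1H3H and H2AFZ had the lowest signed p. HIST1H3B, an H3 gene, had 12, 10.4 and 9.41 CPM in U1 siRNA libraries and 11.3, 13.9 and 12.5 in scrambled oligo libraries, a log2 fold change of -0.24 (SE 0.16). HIST1H3H had -0.28 (SE 0.33) and H2AFZ -0.04 (SE 0.07), again with edgeR adjusted p = 1.00. The abundant members sat close to 0, with -0.03 (SE 0.07) for HIST1H4C, -0.0089 (SE 0.15) for HIST1H1E, 0.03 (SE 0.15) for HIST1H1C, 0.02 (SE 0.07) for H3F3B and 0.01 (SE 0.12) for H3F3A. Neither class of histone genes held a call.

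Whether the miR-211 and U1 siRNA effects differ was tested with an interaction term fitted to the 12 libraries together. A difference was called for 0 of 37 histone genes (0.0074% of 13520 genes, 1 gene, by edgeR), and 1 of 37 had an unadjusted p under 0.05, as had 1.73% of all genes. That gene was HIST2H2BE, with a difference of 1.23 on the log2 scale (SE 0.56, edgeR adjusted p = 0.999). DESeq2 gave 0 of 37 at an unadjusted p under 0.05, against 0.814% of all genes. With the replicate block edgeR gave 4 of 37, against 2.62%. Without the filter 0 of 78 members were called, against 0.00607% of all genes. After HIST2H2BE the highest signed p belonged to HIST1H3B (0.40, SE 0.24) and HIST2H4A (1.07, SE 0.73). The lowest belonged to HIST1H4I (-0.38, SE 0.28), H1F0 (-0.29, SE 0.24) and HIST1H2AH (-0.69, SE 0.59), each with edgeR adjusted p = 0.999.

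The 2 control groups were also set against each other. Plasmid control libraries had lower values of HIST1H4C and higher mean values of 3 linker H1 genes than scrambled oligo libraries, while edgeR called 0 of 33 histone genes (0.0% of 12650 genes). At an unadjusted p under 0.05 it gave 7 of 33 members, limma-voom 8 and DESeq2 2. The shares of all genes were 7.79% for edgeR, 7.93% for limma-voom and 4.07% for DESeq2. DESeq2 called HIST1H4C among 38 genes, which are 0.3% of those tested. It gave no adjusted p to most of the 33 members, HIST1H1C and HIST1H1D among them. These genes could not be called by it, so 0.3% is not the share of genes that could be. limma-voom and edgeR with the replicate block called 0 of 33 members, against 0.0237% and 0.237% of all genes. Transfection type and any difference in handling cannot be told apart between these groups.

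HIST1H4C had a log2 fold change of -0.39 (SE 0.11; edgeR adjusted p = 0.438, DESeq2 adjusted p = 0.00783). The DESeq2 value was adjusted over fewer genes than that of edgeR. Its plasmid control values, 2492 to 3520 CPM, all lay below its scrambled oligo values, 3826 to 4354 CPM. Without plasmid control replicate 1 the log2 fold change was -0.25. Groups also lay apart for H2AFZ and HIST1H2AC, both lower in plasmid control libraries, making 3 of 33 members against 13.9% of all genes. H2AFZ had -0.14 (SE 0.07) and HIST1H2AC -0.45 (SE 0.26). HIST1H4B had 0.803, 1.01 and 1.60 CPM in plasmid control libraries and 3.68, 1.36 and 2.91 in scrambled oligo libraries, a log2 fold change of -1.22 (SE 0.41; edgeR adjusted p = 0.491). HIST1H3B had -0.42 (SE 0.17; edgeR adjusted p = 0.593).

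HIST1H1E, HIST1H1C and HIST1H1D had the 3 highest signed p, with log2 fold changes of 0.34 (SE 0.12), 0.32 (SE 0.13) and 0.38 (SE 0.17) and edgeR adjusted p of 0.507, 0.557 and 0.639. With no filter on low counts, edgeR called these 3 genes, HIST1H4C and HIST1H2AH, 5 members of 77 against 0.114% of 44879 genes. HIST1H2AH also passed without plasmid control replicate 1. The medians were -0.0014 for 24 replication-dependent genes, 0.02 for 9 variants and -0.0039 for all genes tested. Within the class, the 3 linker genes had values above 0 and 4 of 6 H4 genes below 0. Over all genes tested, 6175 had values above 0 and 6475 below 0.

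**Figure D4:**
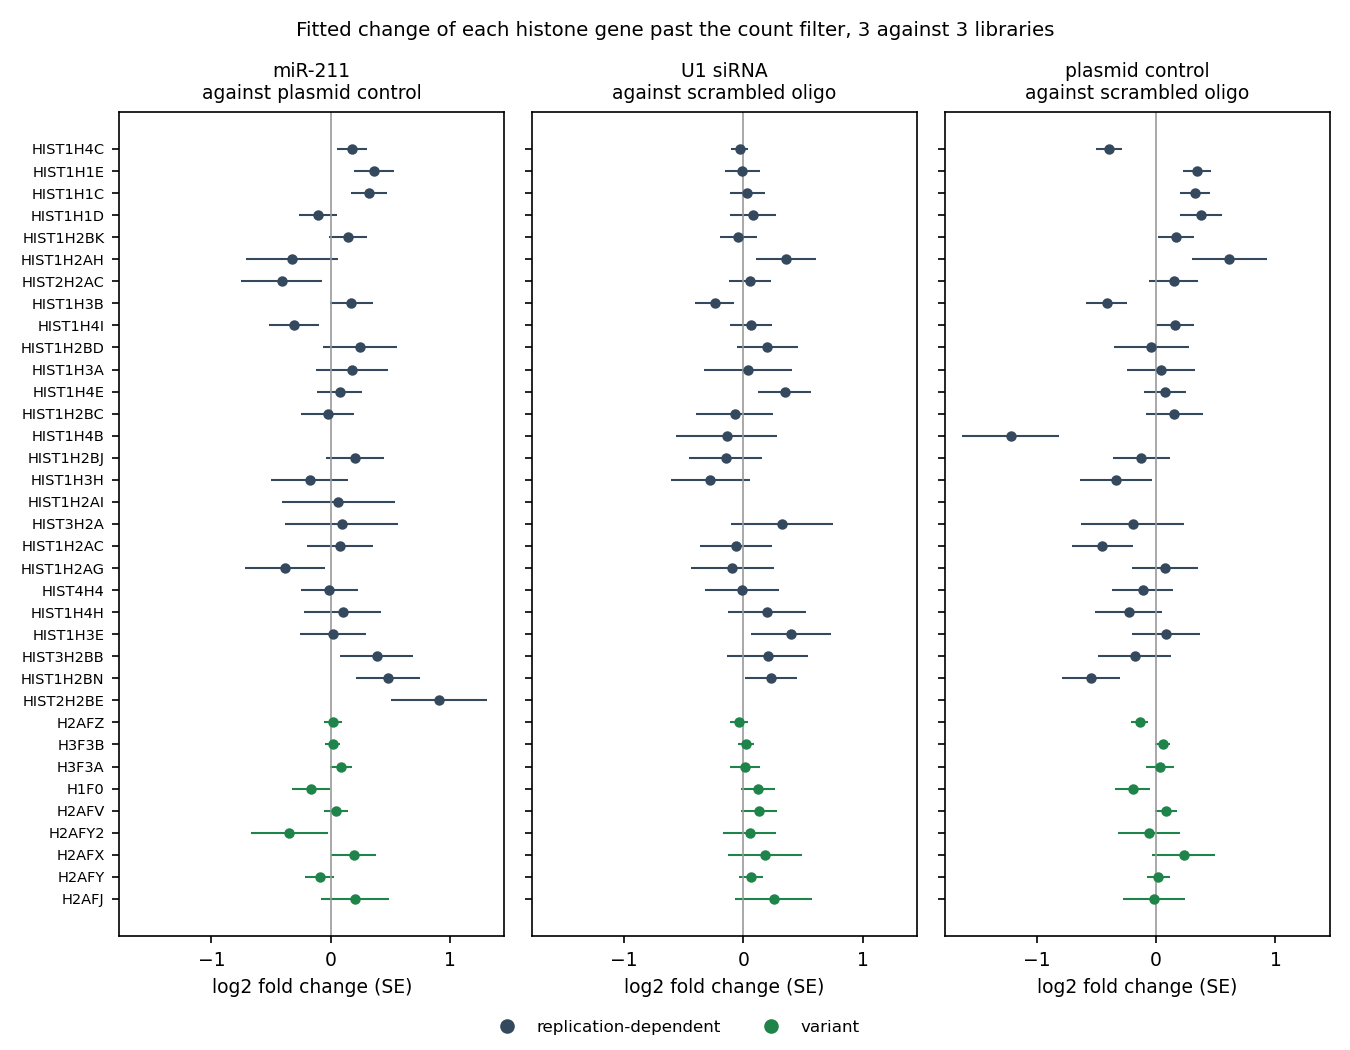
Log2 fold change of each histone gene past the count filter in the 3 comparisons, with its SE as a bar; genes run by class and then by level. HIST1H4C lies at 0.18, -0.03 and -0.39 and HIST1H1E at 0.36, -0.0089 and 0.34 for miR-211, U1 siRNA and the control comparison.

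HIST1H1E was then set against HIST1H4C within each library, a ratio chosen after the values were seen and given without a test. Per 100 counts of HIST1H4C, HIST1H1E had 14.6, 16.5 and 19.4 counts in miR-211 libraries and 14.9, 15 and 15.2 in plasmid control libraries. In the oligo groups it had 11, 7.32 and 9.14 counts in U1 siRNA libraries and 10.5, 8.10 and 8.57 in scrambled oligo libraries. All 6 plasmid libraries lay above all 6 oligo libraries, and within each kind of transfection treated and control libraries overlapped. How often the ratio of 2 other genes splits the libraries this way was not examined. HIST1H1E and HIST1H4C had log2 fold changes of 0.34 and -0.39 between the control groups, so their ratio in part restates those values. The 3 plasmid control libraries had almost the same ratio although HIST1H4C itself ranged between 2492 and 3520 CPM in them. The share of pairs outside exons was 16.3% to 24.3% for miR-211, 14.5% to 21.8% for the plasmid control, 18% to 44.5% for U1 siRNA and 18.6% to 25.5% for the scrambled oligo. Its relation to this ratio was not tested.

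**Figure D5:**
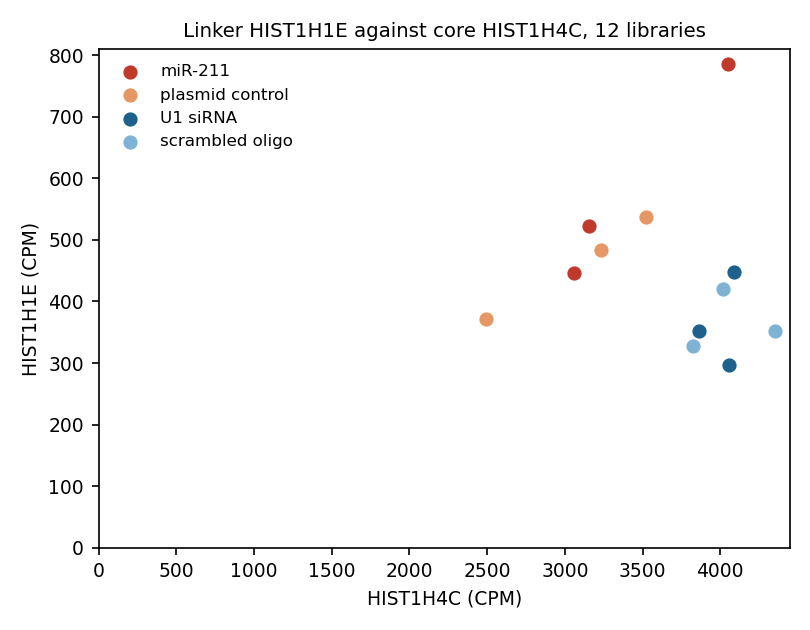
HIST1H1E against HIST1H4C in CPM, 1 point per library, coloured by group. The 6 libraries with plasmid lie at 14.6 to 19.4 counts of HIST1H1E per 100 of HIST1H4C and the 6 with oligo at 7.32 to 11.

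SLBP, which binds the stem-loop, had 44.8 ± 2.47 CPM in miR-211 libraries and 50.9 ± 1.21 in plasmid control libraries, and 44.1 ± 7.67 in U1 siRNA libraries and 38.9 ± 3.19 in scrambled oligo libraries (SD, n = 3 each). Its log2 fold change was -0.15 (SE 0.09; edgeR adjusted p = 0.996) for miR-211, 0.18 (SE 0.14; adjusted p = 1.00) for U1 siRNA and 0.39 (SE 0.09; adjusted p = 0.312) for plasmid control against scrambled oligo. RNU7-1, the annotated gene for U7, was listed at 0 counts in all 12 libraries. How RNA was selected is not given, so whether these libraries could capture this small RNA is unknown. Of 24 genes for histone transcription and 3′ processing, 0 were called in any of the 3 comparisons, with medians of 0.0064 for miR-211, -0.01 for U1 siRNA and -0.03 for the control comparison. The 25 histone chaperone and exchange genes tested and 25 genes of DNA replication and S phase also gave 0 calls in each. At an unadjusted p under 0.05 the 3 lists together held 2 genes for miR-211, both of S phase, 0 for U1 siRNA and 6 for the control comparison. Of the 74 genes tested these are 2.703%, 0.0% and 8.11%, beside 3.29%, 1.58% and 7.79% of all genes. Medians of the S phase genes were -0.0078, -0.0037 and 0.08 on the log2 scale in these comparisons, beside 0.0079, 0.02 and -0.0039 for all genes tested. Medians of the chaperone genes were -0.0094, -0.01 and 0.04.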

How the data were processed

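RNA of 12 HEK293T libraries in 4 groups of 3 was analysed from the read counts per gene that the authors deposited, without normalization. The submitters' processing notes name STAR 2.7.2a with GRCh37 and hg19, but all 58735 gene identifiers match GENCODE 29, made on GRCh38. Which build was aligned cannot be told from these, and all coordinates and sequences are from GENCODE 29. Both strand columns of the deposited counts had nearly equal totals, so the unstranded counts were used, and reads of overlapping or antisense genes cannot be told apart. Depth was 4515728 to 9290686 counts in genes, which leaves genes of a few counts with wide counting error. Intervals and limits cover counting error only, since molecules were not tagged. The share of unannotated pairs stayed out of totals.

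Each comparison was fitted on its 6 libraries with edgeR 4.0.16 in R 4.3.3 (TMM, filterByExpr, quasi-likelihood test, Benjamini-Hochberg adjusted p under 0.05 over all genes tested). DESeq2 1.42.0, limma-voom 3.58.1, a replicate block, no filter, the strand columns and leaving out each library were alternatives. Fewer of them were run for the difference between the miR-211 and U1 siRNA effects. Fits were tested on simulated data. Same-numbered libraries had correlated deviations for miR-211 and the plasmid control (0.248, 0.305 and 0.239), so these numbers were taken to pair them. Named genes were the 12 replication-dependent and 8 variant members with the highest mean CPM per kb of exon, and in each comparison the 3 highest and 3 lowest by signed p. SLBP, RNU7-1 and germ-cell histones were always given. Other genes were named after their values were seen. Members and lists were chosen with earlier results of these data known, and no list was tested. Replicates were distinct: chi-square per degree of freedom between replicates was 2.15 to 7.25.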

Additional observations from a re-analysis of the deposited data

How the results depend on the processing

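Histone calls stayed at 0 for miR-211 and for U1 siRNA under every alternative run. They also stayed at 0 for the difference of the 2 effects, which had fewer alternatives. These were DESeq2, no filter, the replicate block and leaving out U1 siRNA replicate 2. Between the control groups, edgeR called 0 histone genes with the replicate block and 5 without the filter. Leaving out a library gave 0 to 1. DESeq2 called 1, and gave most members no adjusted p. Over all genes, the control comparison had 0 calls, against 30 with the replicate block, 38 by DESeq2, 3 by limma-voom, 51 without the filter, 4 and 6 in strand columns 3 and 4, and 0 to 21 on leaving out a library, 21 being without scrambled oligo replicate 3. Without the filter, 2 genes were called for miR-211, 7 for U1 siRNA and 3 for the difference. Strand columns 3 and 4 each gave 2 for miR-211, and the replicate block gave 0 for the difference, where 1 was called without the block.

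The replication-dependent median moved to -0.10 for U1 siRNA and -0.22 for the control comparison without the filter, and the variant median for U1 siRNA to -0.0029 without the filter and to between -0.015 and 0.13 on leaving out a library. The replication-dependent sum, plasmid control minus scrambled oligo, was -805 CPM, and 178 without HIST1H4C and 176 for linker genes alone, both chosen after seeing the data. Of 377 alternative values for named genes, 31 changed sign, none of them a call. Leaving out a library left 2 libraries in 1 group, whose spread was taken to equal that of the other. Same-numbered libraries did not all deviate together for U1 siRNA (0.140, 0.0907 and -0.0480) or the controls (0.0418, 0.0273 and 0.175), so the block there is a check only. Genes under the filter are limited by depth.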

Other observations

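Members under the count filter were set side by side as ratios of summed counts, scaled to library totals, where each group held at least 3 counts. For miR-211 and the plasmid control 19 of 53 such members had a ratio, and the exact 95% interval left out 1 for HIST1H3J, with 26 and 11 counts (2.19, 1.05 to 4.92), and for HIST2H4A, with 31 and 15 counts (1.92, 1.00 to 3.82). Of all 11208 genes under the filter with a ratio, 3.68% had such an interval. HIST1H3J overlaps HIST1H2AM over 44.7% of its exons, and every window of HIST2H4A is shared with HIST2H4B. For U1 siRNA and the scrambled oligo the interval left out 1 for 0 of 22 members, against 8.95% of 14712 genes. For the plasmid control and the scrambled oligo it did so for 1 of 19, HIST1H2AE, with 6 and 19 counts (0.344, 0.113 to 0.897), against 4.95% of 11462 genes. These intervals cover counting error only and were not adjusted for their number, and the genes were named after their values were seen.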
